A study of Homo sapiens with 2 samples.

Results

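The segment of chromosome 19 between 45 and 50 Mb (hg19) held 591 of the 31950 chromatin loops listed for KYSE180, an established cell line of esophageal squamous cell carcinoma (ESCC). These loops were chosen by position, as those with both bins starting in the segment, and the segment itself was picked for its number of loops. The assay was H3K27ac HiChIP, done on KYSE180 cells after transfection of a non-targeting siRNA, and the 2 libraries are called replicates 1 and 2 in the labels. No cells with another treatment belong to this data set, the cells are 1 line, and the labels do not say whether the libraries came from separate cultures. By the study's methods, the list was made to hold active loops associated with p63, the squamous transcription factor, and how p63 entered the selection is not stated. Both libraries share 1 list of loops, so no value below has a spread between replicates, no test across samples was possible, and intervals (95%) cover counting error only.

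HiChIP joins DNA ends that lie close together in the nucleus and then pulls down the fragments that carry a chosen histone mark. H3K27ac is the acetylation of histone H3 that marks active promoters and enhancers, and each end of a listed loop carries it per the methods. Loops of this kind are known to bring enhancers to the promoters that they act on, and promoters of neighboring active genes also contact one another. The part of the long arm of chromosome 19 examined here is known as one of the most gene-rich parts of the genome.

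As background, the genes of this part of the chromosome include the lipoprotein genes APOE, APOC1, APOC4 and APOC2 next to TOMM40, a gene of mitochondrial protein import. They also include BCL3 and RELB of the NF-kB pathway, the cell adhesion genes PVR, NECTIN2 and BCAM, and ERCC2 and ERCC1 of nucleotide excision repair. In the RefSeq annotation of GRCh38.p14, PPP1R13L, an inhibitor of p53-family proteins, lies between ERCC2 and POLR1G, and ERCC1 is followed by FOSB, a subunit of the AP-1 transcription factor. Farther along the chromosome come CALM3 (calmodulin), SLC1A5 (a glutamine carrier), BBC3 and BAX (promoters of apoptosis), LIG1 (DNA ligase), the fucosyltransferase genes FUT2 and FUT1, PPP1R15A of the stress response, FTL (ferritin light chain), and the ribosomal protein genes RPL18 and RPL13A. The labels name hg19 for the loops, and their positions on chromosome 19 run up to base 59090000, past the 58617616 bases of that chromosome in hg38. No hg19 gene positions were at hand, so no loop was assigned to a gene, the squamous markers TP63, KRT5, KRT6A, KRT14 and KRT17 were not checked, and regions are given below by their position.

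The 591 loops carried 616 contacts and made up 1.85% of the list and 22.8% of the 2588 loops on chromosome 19. By number of loops the segment ranked 2 among 559 windows of 5 Mb, after the window of chromosome 11 that starts at 65 Mb (1367 loops) and before the one of chromosome 9 that starts at 130 Mb (548 loops). It also ranked 2 by distinct anchors, the 2 kb bins at the ends of loops. These ranks restate the choice of the segment. At the lower edge, the last anchor outside was the bin from 44766001 to 44768000 (3 loops in the whole list) and the first one inside was the bin from 45056001 to 45058000 (1 loop). At the upper edge, the last anchor inside, from 49998001 to 50000000, touched the first one outside, from 50000001 to 50002000, and each had 2 loops. A further 74 loops had only 1 bin in the segment, 29 with the other bin below it and 45 with the other bin above it, and 0 loops passed over the whole of it. There were 9 bins of the segment, with the one at 49998001 among them, that were anchors of such loops only. They are left out of the counts of the segment's anchors.

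The segment held many anchors, while the median coverage of its first bins equaled that of the whole list. Of its 2500 bins, 483 (19.3%) were anchors, and they merged into 235 stretches of touching anchors. The coverage, the number of counts that the list gives for the first bin of a loop, was 12 in the median over 325 first bins (quartiles 8 and 18), the same median as over the first bins of the whole list (quartiles 8 and 20). Among the 166 windows of 5 Mb with at least 50 loops, the segment ranked 92 by median coverage, and 24 of them, the segment included, had this value. The coverage of the 158 anchors that were only ever a second bin is not listed.

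**Figure D1:**
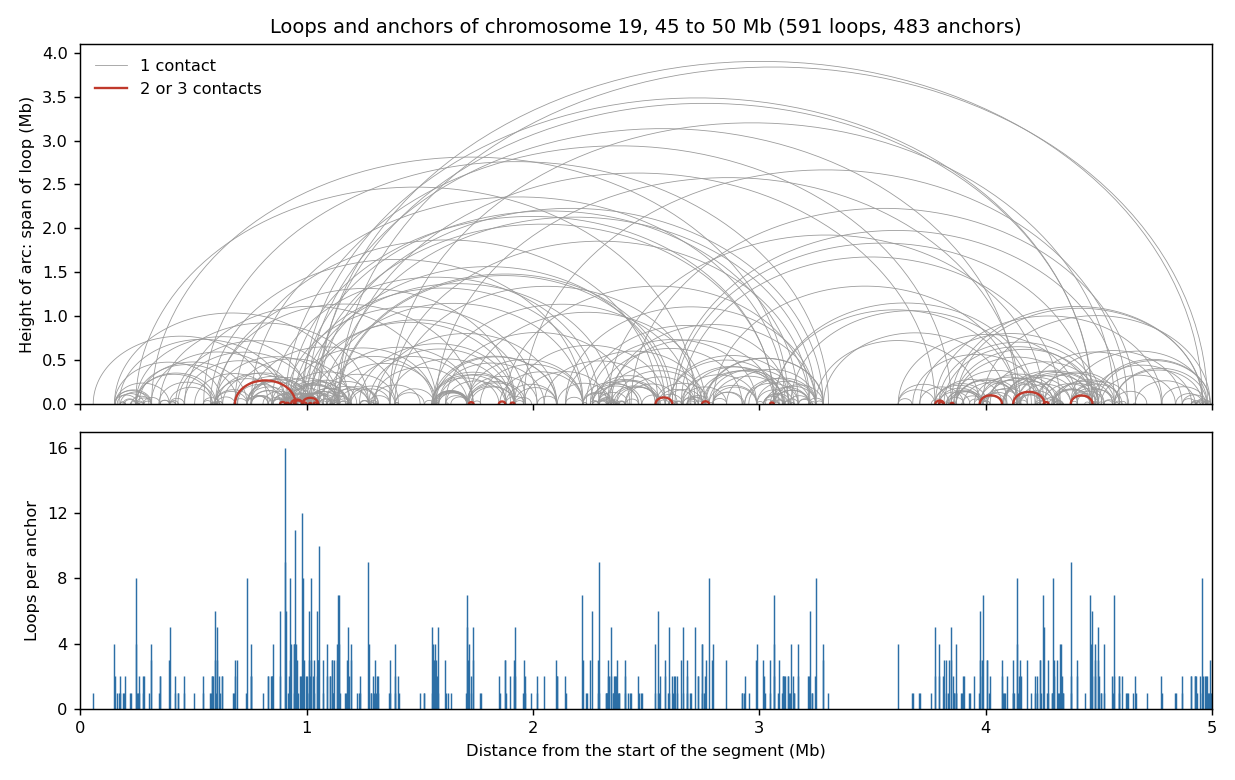
Loops and anchors along the segment. Upper panel, each arc is 1 loop, its height is the span in Mb, and red arcs have 2 or 3 contacts. Lower panel, each line is 1 of 483 anchors and its height is the number of member loops. The x axis is the distance from the start of the segment in Mb. The tallest lines, with 10 to 16 loops, stand close to 1 Mb, and no anchor lies in the interval from about 3.3 to 3.6 Mb.

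The anchors differed widely in their number of loops. Of the 483 anchors, 190 (39.3%) had 1 loop, 132 had 2, and 124 had 3 to 5. There were 37 anchors with 6 or more member loops, 7.66% of the anchors (Wilson interval 5.61 to 10.4%), against 3.05% of all 34902 anchors of the list. The share was 7.87% and 6.87% in the next windows by number of loops, which lie on chromosomes 9 and 17. The share of the list counts every loop of an anchor, and counted that way 39 anchors of the segment had 6 or more. All of these windows were picked for their loops, which bears on the number of loops per anchor, so the shares are a description. These 37 anchors touched 257 of the 591 loops (43.5%), and 31 loops joined 2 of them to each other. On average an anchor of the segment had 2.45 loop ends, against 1.83 in the whole list, and by this measure the segment ranked 15 among the 166 windows.

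The most connected anchors stood together near 46 Mb. The bin from 45906001 to 45908000 had 16 loops with 17 contacts and a coverage of 58. Its partners lay 24 to 736 kb below it (6 loops) and 14 to 2940 kb above it (10 loops), and 13 of the 16 lay within 200 kb. The only partner of this bin joined by 2 contacts was the bin from 45920001 to 45922000, at a distance of 14 kb. The bin at its upper side, from 45908001 to 45910000, had the highest coverage of the segment, 73, but 6 loops, and the bin at its lower side, from 45904001 to 45906000, had 9 loops with a coverage of 23. Together these touching bins formed a stretch of 6 kb with 31 loops to 21 other stretches, the most partners of any stretch in the segment. The median was 4 partners.

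The bin from 45980001 to 45982000 came next, with 12 loops and 15 contacts, and was the most local of the leading anchors. Its coverage was 40. All of its partners lay within 132 kb, with 6 below it and 6 above it, and 3 of them (45930001 to 45932000, 45998001 to 46000000 and 46050001 to 46052000) were joined to it by 2 contacts. The bin from 45950001 to 45952000 had 11 loops with 12 contacts and a coverage of 49. Its 7 partners below it reached down to 492 kb and its 4 partners above it up to 270 kb, and its only partner with 2 contacts lay 268 kb below. The bin from 46054001 to 46056000 had 10 loops with 1 contact each and a coverage of 21, of which 1 ran 3902 kb up the chromosome.

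Beside the bin at 45904001, the anchors with 9 loops were those starting at 46272001, 47290001 and 49374001. Their coverage was 33, 50 and 28, respectively. The one at 47290001 had 6 of its 9 partners within 200 kb and the one at 49374001 had 4. Another 10 anchors had 8 loops, 5 of them below 46100000, and their coverage ran from 15 to 66. The loops of these 10 were not equally local. The bin from 49298001 to 49300000 had all partners within 294 kb, whereas the bin from 48248001 to 48250000, with a coverage of 36, had 1 of its 8 partners within 200 kb and a median distance of 558 kb to them. One of the 10, from 49956001 to 49958000 near the upper edge, had the second-highest coverage of the segment (66) and, beside its 8 member loops, 8 loops that left the segment. Its number of loops in the whole list was 16, so the boundary of the segment divides its loops.

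Near 46 Mb most pairs of the leading stretches were joined. The window from 45900001 to 46000000 had 86 loops with an end in it, and the next one, up to 46100000, had 57, against a median of 19 over the 50 windows of 100 kb. The window from 46100001 to 46200000 followed with 48 loops, and the next were 49400001 to 49500000 with 37 and 49200001 to 49300000 with 35. The 200 kb from 45900001 to 46100000 held 44 anchors, 11 of them with 6 or more loops, and 125 loops (21.2%) had an end there. Of the 6 stretches with the most partners in these 200 kb (starting at 45904001, 45926001, 45942001, 45980001, 46016001 and 46050001), 12 of the 15 possible pairs were joined, by 26 loops with 29 contacts. The pairs without a loop were 45904001 with 46050001, and 45926001 with 46016001 and with 46050001. The list holds only called loops. Contacts of the member loops of which a bin was the first made up a median of 12.5% of its coverage. Loops of which it was the second bin, and loops that left the segment, are not in this share. A pair without a listed loop may thus still have had contacts, and these pairs are not separated from those joined by 1 or 2 loops. The 22 bins of these stretches, 4.55% of the anchors, had an end of 97 loops (16.4%). These stretches were picked for their partners, so their loops and joined pairs are a description. Of all 870 pairs of anchors at least 10 kb apart in these 200 kb, 5.86% were joined (Wilson interval 4.49 to 7.63%). In the whole segment the share was 8.61% at 10 to 50 kb and 2.37% at 50 to 200 kb. The 870 pairs pool both of these distance classes, so their share cannot be set against either one alone.

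The pair of stretches with the most loops in the segment lay here as well. The stretches from 45942001 to 45956000 (14 kb) and from 45980001 to 45986000 (6 kb), with 24 kb between them, were joined by 6 loops with 7 contacts. No other pair had more than 3 loops. There were 12 pairs with 3 loops, and 3 of these also involved the stretch from 45904001 to 45910000, with partners at 45844001 to 45852000, 45880001 to 45884000 and 45980001 to 45986000. Away from 46 Mb, the stretch from 46558001 to 46570000 was joined by 3 loops to 46552001 to 46556000 and by 3 loops to 46710001 to 46718000, across 140 kb. The stretch from 47322001 to 47336000, at 14 kb among the longest, was joined by 3 loops to 47286001 to 47294000 below it and by 3 to 47362001 to 47372000 above it. After the stretch at 45904001, the one with the most partners was that from 46140001 to 46148000, which had 17 partners through 19 loops. In all, 511 pairs of stretches were joined, 447 of them (87.5%) by 1 loop and 51 by 2. An anchored stretch lay between the ends of 494 of the 591 loops (83.6%, 80.4 to 86.4% by Wilson's method). The spacing of the 235 stretches and the shortest listed span of 10 kb bear on this share. It was not computed for other windows and is a description.

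Coverage and number of loops moved together only in part. Over the 325 first bins, the Spearman correlation of coverage with all member loops of the bin was 0.583, and with only the loops of which it was the first bin 0.39. Both are descriptions across bins of 1 list, which share libraries and overlap in their loops. As read here, the coverage of a bin would include the contacts of its own loops, so coverage and loops are not separate measures. The 26 bins with a coverage of at least 30 had 1 to 16 loops (median 6), and the 299 bins below had at most 10 (median 2). The bins with the highest coverage were those starting at 45908001 (73), 49956001 (66), 45906001 (58), 47290001 (50) and 45950001 (49), which had 6, 8, 16, 9 and 11 loops, respectively. The order by coverage was thus not the order by loops.

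**Figure D2:**
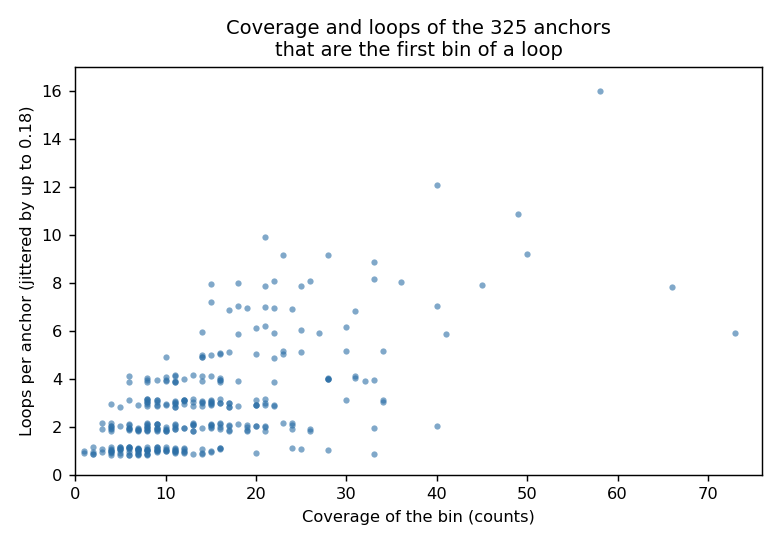
Coverage of a bin (x axis, counts) against its member loops (y axis, shifted at random by up to 0.18 to separate points). Each point is 1 of the 325 anchors that are the first bin of a loop. As read here, the coverage of a bin would include the contacts of its own loops. Loops rose with coverage in general (Spearman 0.583), but the bin with the highest coverage, 73, had 6 loops and the bin with 16 loops had a coverage of 58.

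Few loops rested on more than 1 contact. Of the 591 loops, 569 had 1 contact, 19 had 2 and 3 had 3. The share with 2 or more was 3.72% (22 loops, Wilson interval 2.47 to 5.57%), against 3.36% of all loops in the list, so the segment was not set apart by this share. For 1 contact the exact Poisson interval runs from 0.0253 to 5.57 and for 3 contacts from 0.619 to 8.77, so single loops cannot be ranked by their contacts.

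The loops with 3 contacts were short. They joined 45882001 to 45884000 with 45904001 to 45906000 (22 kb apart), 48046001 to 48048000 with 48062001 to 48064000 (16 kb), and 48792001 to 48794000 with 48812001 to 48814000 (20 kb). The coverage of their first bins was 20, 20 and 11, respectively. The first of them ends in the stretch with the most partners, while the others lie in parts of the segment with fewer loops.

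The 19 loops with 2 contacts fell into several places. Of the 22 loops with 2 or more contacts, 9 had an end between 45900001 and 46100000, and 7 lay there with both ends. These 7 were 13.7% of the 51 loops inside these 200 kb (Wilson interval 6.81 to 25.7%). The place was picked for its loops, and loops inside 200 kb are short by construction. Between 46716001 and 46918000 there were 3 further loops with 2 contacts, with spans of 16 to 28 kb. The loop from 49374001 to 49376000 to the bin at 49470001 spanned 96 kb, the one from 48972001 to the bin at 49070001 spanned 98 kb, and the one from 49120001 to the bin at 49258001 spanned 138 kb. The longest was the loop of 268 kb from 45682001 to 45950001. Over all 22, the span had a median of 25 kb, against 124 kb for the loops with 1 contact.

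Loops became rarer with distance. The median span was 120 kb, with quartiles at 34 and 314 kb, and the extremes were 10 and 3902 kb. Of the loops, 199 spanned 10 to 50 kb, 176 spanned 50 to 200 kb, 164 spanned 200 kb to 1 Mb and 52 spanned 1 Mb or more. Set against the number of pairs of anchors at each distance, the fall was steep. From 10 to 50 kb, 8.61% of 2312 pairs were joined (Wilson interval 7.53 to 9.82%), and from 50 to 200 kb 2.37% of 7417 pairs (2.05 to 2.74%). From 200 kb to 1 Mb the share was 0.515% of 31821 pairs (0.442 to 0.6%), and above 1 Mb 0.07% of 74288 pairs (0.0534 to 0.0918%). The share of loops with 2 or more contacts was 7.54% in the shortest class (15 of 199, 4.62 to 12.1%), 3.41% in the next (6 of 176, 1.57 to 7.24%) and 0.61% from 200 kb to 1 Mb (1 of 164, 0.108 to 3.37%). None of the 52 loops of 1 Mb or more had 2 contacts, which allows a share of up to 6.88%. In the same classes of the whole list the shares were 7.26%, 2.48%, 1.19% and 0.322%, so this fall with distance is not particular to the segment. The classes held 31%, 29.7%, 27.6% and 11.7% of all listed loops, against 33.7%, 29.8%, 27.7% and 8.8% in the segment. The segment holds only loops inside its 5 Mb, which cuts its longest class, while the whole list has no such bound. In the windows of chromosomes 9 and 17, which have the same bound, the longest class held 8.21% and 8.71% of the loops, respectively. The pairs share anchors and are not independent, so these intervals are too narrow.

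The segment was compared with the next windows by number of loops, the 5 Mb of chromosome 9 from 130 Mb with 548 loops between 432 anchors and the 5 Mb of chromosome 17 from 75 Mb with 482 loops between 364 anchors. In each distance class, the share of joined pairs was lowest on chromosome 19 and highest on chromosome 17. From 200 kb to 1 Mb the share on chromosome 17 was 0.801% (0.674 to 0.953%), above the interval of chromosome 19, and in the other classes these intervals overlapped. The intervals of chromosomes 19 and 9 overlapped in all classes. The segment thus had the most anchors of the 3, and the lowest shares of joined pairs. Loop ends per anchor were 2.45, 2.54 and 2.65 on chromosomes 19, 9 and 17, respectively. Possible pairs rise faster than anchors, so at similar loop ends per anchor the share is lower where anchors are more. The order of the shares is therefore a description. The share of loops with 2 or more contacts was 4.74% on chromosome 9 (3.26 to 6.86%) and 6.02% on chromosome 17 (4.22 to 8.51%), with intervals that overlapped that of chromosome 19. Median coverage was 16 and 13, respectively. No test of these differences was made, since all values come from 1 list and the windows were picked by their loops.

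**Figure D3:**
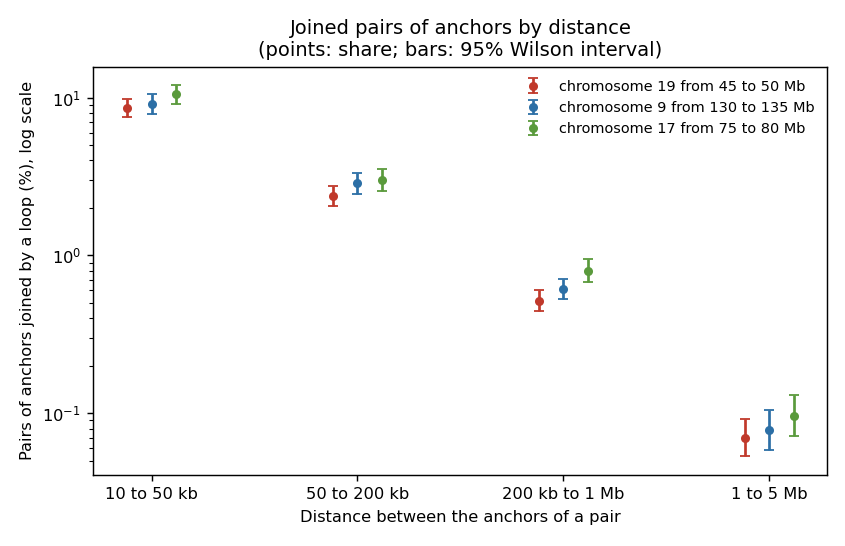
Share of pairs of anchors joined by a loop (y axis, percent, log scale) by the distance between the anchors (x axis, 4 classes). Points are shares and bars are 95% Wilson intervals, for the segment of chromosome 19 (red), chromosome 9 from 130 Mb (blue) and chromosome 17 from 75 Mb (green). The shares of the segment fell from 8.61% at 10 to 50 kb to 0.07% above 1 Mb and were the lowest of the 3 in every class. The segment also had the most anchors of the 3, and possible pairs rise faster than anchors, so the order of the shares is a description.

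Through its loops the segment formed 1 network. All 235 stretches were connected to each other through member loops, and the same held on chromosomes 9 and 17. With the loops under 1 Mb, the 230 stretches that remained were still 1 group. With the loops under 200 kb, the 218 remaining stretches fell into 9 groups, 5 of which held at least 10 stretches and are called neighborhoods here. This limit was chosen after the values were seen, and their number depended on it. There were 9 neighborhoods with limits of 100 or 150 kb, 4 with 300 kb and 2 with 400 kb. With 200 kb, the segments on chromosomes 9 and 17 each had 6.

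Neighborhood 1 ran from 45154001 to 46368000 and was the largest. It held 66 stretches with 130 anchors, 175 loops within it and 18 of the 37 anchors with 6 or more loops, and it includes the dense 200 kb described above. Its first bins had a coverage of 15 in the median, with quartiles of 9 and 21. Neighborhood 2, from 46390001 to 47104000, was sparse, with 20 stretches, 36 anchors, 35 loops within it and 1 anchor with 6 or more loops. Its bins had a median coverage of 10.

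Neighborhood 3 ran from 47142001 to 48284000, with 57 stretches, 101 anchors and 106 loops. Its most connected anchor within the neighborhood, from 47776001 to 47778000, had 8 loops and a coverage of 45. Neighborhood 4, from 48612001 to 49712000, had 53 stretches, 98 anchors and 111 loops, and 7 of these loops had 2 or more contacts (6.31%, Wilson interval 3.09 to 12.4%), against 9 of 175 in neighborhood 1 (5.14%, 2.73 to 9.48%). These intervals overlap. Neighborhood 5, from 49774001 to 49996000, lies at the upper edge of the segment and was seen only in part. It held 12 stretches and 16 loops.

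The widest interval between neighborhoods, from 48284001 to 48612000, was 328 kb long. Within it the 306 kb from 48306001 to 48612000 held no anchor, the longest such interval in the segment, while each of the next ones was 92 kb long. This interval separated the groups under every limit up to 400 kb. No loop shorter than 306 kb can cross the part without anchors, so under the limits below that length the separation was fixed in advance. Only the limit of 400 kb could have joined the groups on either side, and it did not. At most 29 listed loops passed over any bin of the interval between the neighborhoods and at least 28 did, against a median of 54 over the bins of the segment. Only 2 of these loops were shorter than 1 Mb. Loops are listed only between bins with H3K27ac, so fewer short loops over an interval without anchors cannot be told apart from the absence of anchors in it.

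**Figure D4:**
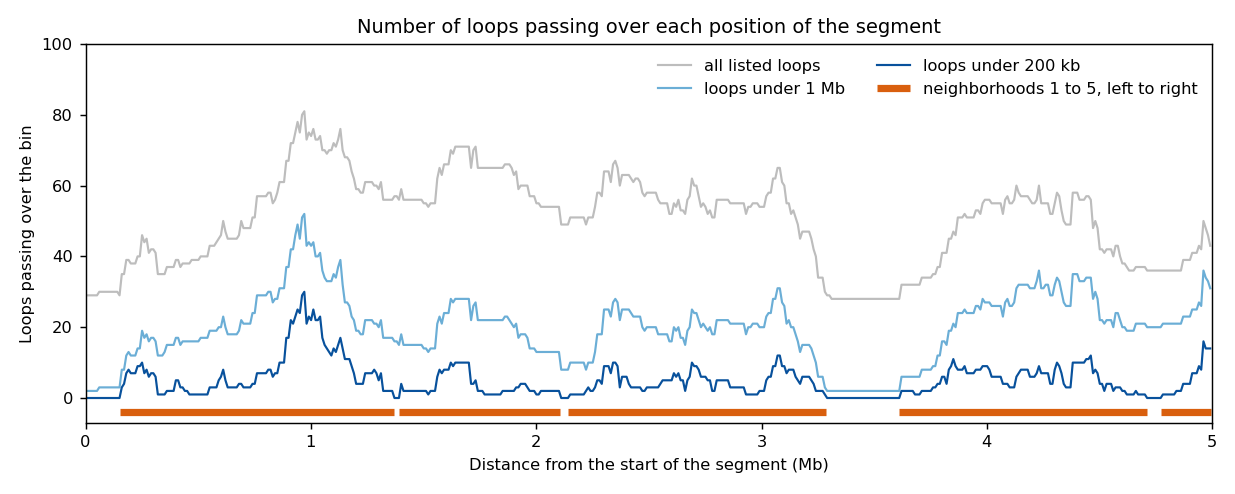
Number of listed loops that pass over each position, for all loops (grey), loops under 1 Mb (light blue) and loops under 200 kb (dark blue). The x axis is the distance from the start of the segment in Mb, and the orange bars are the 5 neighborhoods. All 3 curves are highest close to 1 Mb (81, 52 and 30 loops), and the curve for loops under 200 kb is at 0 between the neighborhoods apart from a value of 1 beside the second interval.

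Of the 591 loops, 443 stayed within a neighborhood, but 369 of these were loops under 200 kb, which lie within one by construction. Of the 216 loops of 200 kb or more, which did not define the neighborhoods, 74 stayed within one and 40 ran between them, while 102 had an end on an anchor that belongs to none. Neighborhood 1 had 10 loops to neighborhood 2, 12 to neighborhood 3, 4 to neighborhood 4 and 1 to neighborhood 5. There were 6 loops between neighborhoods 3 and 4, across the interval without anchors, and 5 between 4 and 5. The loops between neighborhoods spanned 416 kb or more, and 0 of the 40 had 2 contacts, a count that allows up to 3.

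Anchors were also compared at equal distance. Of the pairs of anchors 200 to 400 kb apart, 54 of 4751 within a neighborhood were joined (1.14%, Wilson interval 0.872 to 1.48%) and 0 of 726 between neighborhoods, with an upper bound of 0.526%. The pairs had a median distance of 298 kb within and 330 kb between neighborhoods, and when the class was divided at 300 kb the intervals overlapped in both parts. From 400 to 600 kb the shares were 0.305% within (0.166 to 0.561%) and 0.322% between (0.148 to 0.7%). From 600 kb to 1 Mb they were 0.241% and 0.164%, again with overlapping intervals. The intervals within and between neighborhoods were thus separate from 200 to 400 kb as a whole and overlapped in every other class and in both parts of this one, and the limit of 200 kb that set the neighborhoods was chosen on the same list.

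The 52 loops of 1 Mb or more (8.8%, Wilson interval 6.77 to 11.4%) each rested on 1 contact. A window of 5 Mb cannot hold all such loops of its anchors. They used 96 distinct anchors, and 14 of the 52 loops had an end between 45900001 and 46100000, against 125 of all 591 loops (21.2%). Of the 37 anchors with 6 or more loops, 20 had a loop of this length, against 96 of all 483 anchors. An anchor with more loops has more chances to have a long one, so these counts are a description. Of the 52 loops, 23 ended on at least 1 anchor with 6 or more loops. Among all 591 loops this held for 257 (43.5%), so the long loops were not set apart by this share. The longest joined 46054001 to 46056000 with 49956001 to 49958000 (3902 kb), bins with 10 and 8 loops. The next joined 46140001 to 46142000 with 49978001 to 49980000 (3838 kb), 45982001 to 45984000 with 49468001 to 49470000 (3486 kb), 46046001 to 46048000 with 49470001 to 49472000 (3424 kb), and 46364001 to 46366000 with 49566001 to 49568000 (3202 kb). The third and the fourth of these ended in touching bins on either side of base 49470000 and began in different stretches. Of the 591 loops, 21 passed over the interval from 48284001 to 48612000, with a median span of 2228 kb.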

How the data were processed

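H3K27ac HiChIP was performed by the authors in KYSE180 cells with a non-targeting siRNA (2 libraries, 1 group). The authors aligned and filtered reads with HiC-Pro (hg19 per the submitters' processing notes), called what the methods term p63-associated active loops with FitHiChIP (Peak-To-All mode), and kept loops with H3K27ac at each end. Versions and thresholds are not given in the sources used here. The deposited list, 1 for both libraries, has no header. Its 2 value columns are counts, deposited without normalization, and were read as contacts of the loop and coverage of its first bin. The depth of each library is unknown. The coverage of the segment's first bins sums to 4716.

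Members, lists and limits were chosen with earlier results of these data known. Touching anchors were merged into stretches, and stretches joined by loops into groups. Wilson intervals were used for shares and exact Poisson intervals for contacts (95%), and an upper limit of 3 was used for a count of 0. The functions recovered the known make-up of 50 of 50 simulated lists. By rule the text names the 10 anchors with the most loops (10 tie at 8), loops with 3 contacts, the 5 densest 100 kb windows, leading stretch pairs (12 tie at 3 loops), the 5 longest loops and the largest groups. Other regions were named after their values were seen. Planned gene promoter results were not run, because gene positions on hg19 were not at hand. Software was networkx 3.6.1, scipy 1.17.1, pandas 2.3.3, numpy 2.4.6 and matplotlib 3.10.9 under Python 3.11.15.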

Additional observations from a re-analysis of the deposited data

How the results depend on the processing

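The 10 results were recomputed under alternatives 29 times, of which 11 were chosen after seeing the data. A count was taken as moved when it changed by more than 1.5 times, and a median or share when it left its 95% interval. By these limits 10 values moved and 19 did not. Loops with at least 2 contacts left 22 loops in place of 591, with a median span of 25 kb in place of 120 kb and a largest connected group of 5 stretches in place of 235. Loops spanning at least 20 kb had a median span of 146 kb, by construction. Median coverage was 15 in place of 12 when each loop was counted once, which weights bins with several loops. With the loops under 200 kb the largest group held 66 stretches. Windows of 250 kb gave 40 loops per 100 kb in place of 86 in the densest window. There were 9 neighborhoods with limits of 100 kb and of 150 kb and 2 with 400 kb, in place of 5. Without the stretch with the most partners, the largest group held 232 stretches. The segment, kept at its own borders, also ranked 2 by loops when the other windows were shifted by 2.5 Mb. It was not recounted with shifted borders. Promoter widths and transcript starts were not run. No paired analysis was possible because there is 1 group and 1 list, and no replicate could be left out. Most loops rest on 1 contact, and the depth of the libraries is unknown.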
